A study of Mus musculus with 9 samples.

Results

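The replication-dependent histone genes were examined in RNA sequencing data of B16 cells. B16 is a cell line from a mouse melanoma, and the cells were kept on PDMS film, a flexible silicone sheet that can be stretched. The histone genes were taken as all gene names that begin with Hist1h, Hist2h, Hist3h or Hist4h. The deposited tables hold 22972 gene names and mix the older and the newer naming of these genes. Only 8 names begin with Hist as listed, and another 59 genes of the same clusters carry newer symbols such as H1f2 or H2bc4, whose older Hist symbols were read from RefSeq synonyms. The 67 genes were described together, and the 8 were also counted on their own. The older symbol is given in parentheses where a gene is first described. A total of 9 libraries were analyzed, 3 in each of 3 groups. All cells were wild-type B16 cells grown in medium with serum on the film and harvested on day 3. CTL cells were the unstrained control and MS cells were strained cyclically for 72 h. The third group was given blebbistatin, an inhibitor of non-muscle myosin II, at 100 ng/mL for 72 h. Its labels name blebbistatin alone, while the study describes straining together with blebbistatin, so that the group is called Blebb. here and whether it was also strained is uncertain. B16 is 1 cell line, the replicates are labelled as parallel experiments, and no source states that they came from separate cultures. The p-values therefore measure only the spread between these samples, which may be technical.

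Histones package DNA into nucleosomes. The replication-dependent genes supply core histones H2A, H2B, H3 and H4 and the linker histone H1 while DNA is copied in S phase. Most of their mRNAs are unusual in that they end in a short stem-loop and carry no poly(A) tail. The stem-loop is bound by SLBP, and U7 snRNP directs the cut just behind it. Some of these genes can also give polyadenylated mRNA, a form known from cells that leave the cell cycle or differentiate. The libraries were prepared with an mRNA sequencing kit. Whether poly(A) tails were used to select or prime the RNA was not given in the sources used here, and total levels of histone mRNA cannot be read from values in which the tail-less form may be under-represented.

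The stem-loop was found by its pattern (a 16 nt stretch of a 6 nt stem and a 4 nt loop rich in T) in the annotated transcripts of 46 of the 67 genes. Among all 21877 protein-coding genes of GENCODE M21 it was found in 65 (0.297%). Of the 67 genes, 13 had no annotated 3′ UTR, the part after the stop codon in which the stem-loop lies. It could not be found in these. The windows of the detected genes are shown with the stem-loop in capitals and 5 nt of flank on either side, in GRCm38 coordinates, because they show that a detected gene can hold the same element as an undetected one.
H1f2 (Hist1h1c), chr13:23739507-23739532, plus strand: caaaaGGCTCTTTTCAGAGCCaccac
H2aw (Hist3h2a), chr11:58955167-58955192, plus strand: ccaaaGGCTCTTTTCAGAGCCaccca
H2bc8 (Hist1h2bg), chr13:23571838-23571863, plus strand: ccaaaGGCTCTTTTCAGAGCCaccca
H2ac18 (Hist2h2aa1), chr3:96246027-96246052, plus strand: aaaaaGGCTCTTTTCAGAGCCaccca
H2ac19 (Hist2h2aa2), chr3:96239779-96239804, minus strand: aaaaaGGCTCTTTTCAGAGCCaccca
H4c9 (Hist1h4i), chr13:22040961-22040986, minus strand: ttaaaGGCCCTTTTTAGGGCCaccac
H2ac8 and H4c8, the genes with the next highest levels, were below 1 FPKM and are shown for comparison.
H2ac8 (Hist1h2ae), chr13:23570663-23570688, minus strand: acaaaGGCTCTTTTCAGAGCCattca
H4c8 (Hist1h4h), chr13:23531453-23531478, plus strand: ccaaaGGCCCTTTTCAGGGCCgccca
H2bc4 (Hist1h2bc) and H2bc21 (Hist2h2be) had no match in their annotated transcript. H1f2, H2aw, H2bc8, H2ac18, H2ac19 and H2ac8 held the same 16 nt, while H4c9 and H4c8 differed from them and from each other. A poly(A) signal, AATAAA or ATTAAA on the transcript strand in the last 50 nt of an annotated transcript, was found in 17 of the 67 genes, compared with 80.8% of protein-coding genes. The 13 genes without an annotated 3′ UTR could not show a signal past the stop codon. The windows of H1f2 and H2aw, the linker histone gene and the H2A gene with the highest levels, are shown with the signal in capitals.
H1f2 (Hist1h1c), chr13:23740332-23740357, plus strand: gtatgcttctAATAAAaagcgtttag
H2aw (Hist3h2a), chr11:58956787-58956812, plus strand: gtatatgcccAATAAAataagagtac
In H1f2 the annotated transcript runs on for 840 nt after the stem-loop, and in H2aw for 1643 nt.

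Few members of the family reached 1 FPKM, while most had values above 0. Levels are given in FPKM, a count of fragments corrected for transcript length and for library size. Averaged over the libraries, 1 FPKM or more was reached by 8 of the 67 genes (11.9%), compared with 10109 of all 22972 gene names (44.0%). The same 8 genes were at or above 1 FPKM in every library, and no other member reached 1 FPKM in any library. They were the linker histone gene H1f2 (Hist1h1c), the H2A genes H2aw (Hist3h2a), H2ac18 (Hist2h2aa1) and H2ac19 (Hist2h2aa2), the H2B genes H2bc4, H2bc8 (Hist1h2bg) and H2bc21, and the H4 gene H4c9 (Hist1h4i). None of the 12 H3 genes was among them, and their highest mean was 0.412 FPKM. By class, 1 of 6 H1, 3 of 18 H2A, 3 of 18 H2B and 1 of 13 H4 genes were detected at this limit. By cluster, they were 4 of 54 Hist1, 3 of 10 Hist2, 1 of 2 Hist3 and 0 of 1 Hist4 genes.

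The other 59 genes lay just above 0. Their means went up to 0.618 FPKM in H2ac8 (Hist1h2ae) and 0.592 FPKM in H4c8 (Hist1h4h), an H2A and an H4 gene. In H2ac8 the FPKM was 0.414, 0.803 and 0.732 in CTL 1 to 3, 0.690, 0.357 and 0.476 in MS 1 to 3 and 0.853, 0.514 and 0.724 in Blebb. 1 to 3. In H4c8 it was 0.720, 0.565 and 0.343 in CTL, 0.932, 0.407 and 0.786 in MS and 0.763, 0.449 and 0.367 in Blebb. in the same order. All 3 groups overlapped in both genes. A mean of at least 0.1 FPKM was found in 41 of the 67 genes (61.2%, compared with 54.6% of all gene names). A value above 0 in some library was found in 61 (91.0%, compared with 71.8%), and 49 were above 0 in all 9. The share of the family was thus below that of all gene names at 1 FPKM and above it at the lower limits, with no test made. Another 6 were listed at 0 throughout, namely H1f5, H2ac1, H2ac15, H2bc14, H2bu2 and Hist1h4m. Together the 59 genes summed to between 7.47 and 10.4 FPKM per library. Of the 8 genes listed under a Hist name, none reached 1 FPKM. Their highest value was 0.192 FPKM, in Hist1h2ap in MS 1, and they summed to between 0.218 and 0.545 FPKM per library, or 0.527% of the summed mean FPKM of the 67 genes.

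**Figure D1:**
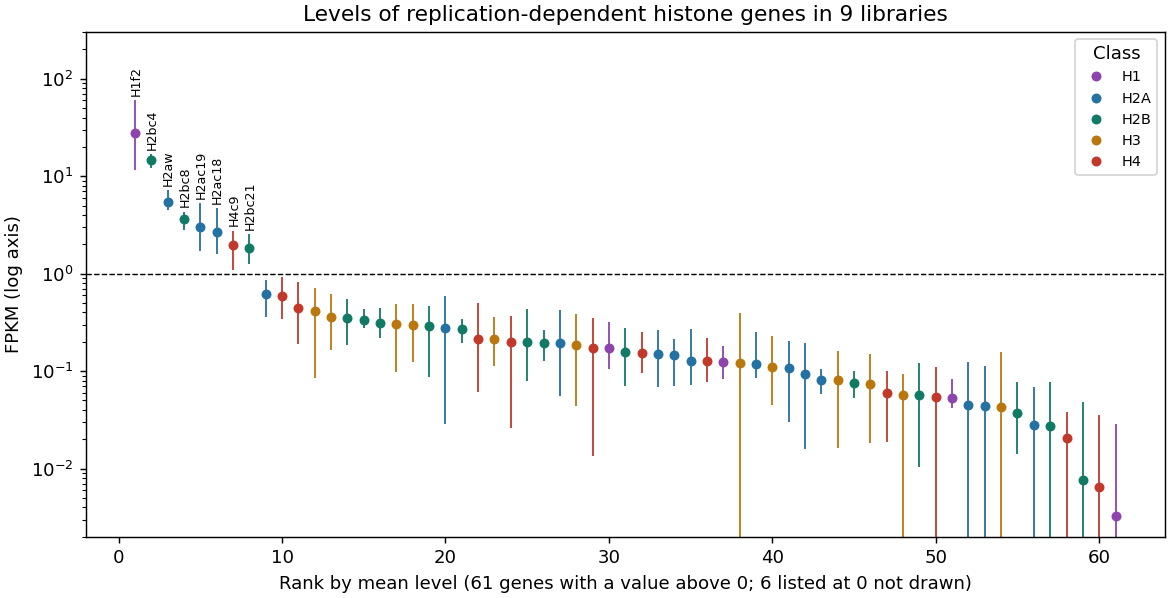
The mean FPKM of 61 histone genes is plotted on a log axis against rank, with points colored by histone class, bars from the lowest to the highest of the 9 libraries (bars that reach 0 end at the lower edge) and a dashed line at 1 FPKM. The 8 labelled genes have all of their bar above the line, and every bar from H2ac8 on lies below it.

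The 67 genes summed to a mean of 69.6 FPKM, of which the 8 detected genes made up 87.1% and H1f2 alone 39.5%. The 11 variant histone genes listed, most of them polyadenylated and not restricted to S phase, summed to 18.2 times as much (1263 FPKM). H2az1 (H2A.Z) had a mean of 594.8 FPKM in this list, and H3f3a and H3f3b, both of which encode the replacement H3 histone, had means of 187.6 and 188.0 FPKM. FPKM is scaled by length, but tail-less mRNA and shared fragments may be counted less fully, so the ratio describes the deposited values and not the amounts of mRNA in the cells.

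The annotated 3′ ends of the detected genes were longer at the median. A poly(A) signal was found in 4 of the 8 (H1f2, H2aw, H4c9 and H2bc21) and in 13 of the other 59. The median length of the longest annotated 3′ UTR was 559 nt in the 8 genes (109 to 2192) and 89 nt in the 59 (0 to 4931). One of over 500 nt was annotated in 4 of the 8 (H1f2, H2aw, H2bc4 and H2bc21) and in 13 of the 59. H1f3, with 4931 nt, had a mean of 0.0529 FPKM. The stem-loop pattern was present in 6 of the 8 genes and in 40 of the 59. No 3′ UTR was annotated in 13 of the 59 and in 0 of the 8. In those 13 genes neither element could be found past the stop codon, and their length enters the median as 0. These are descriptions of the annotation, and no test was made. Near-identical copies are a limit, because the share of 50 nt stretches that also occur in another annotated gene had a median of 30.8% in the 8 genes, 52.3% in the 59 and 89.1% in the 8 listed as Hist. How shared fragments were counted was not given in the sources used here, and the part of this in the low values was not tested.

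The promoters of the family had motifs in common. RefSeq promoters (250 bases before to 50 after a start, GRCm38.p6) were matched for 62 of the 67 genes, 1 of them with a pair of starts. CCAAT, the element bound by NF-Y, was found on either strand in 54 of 63 member promoters (85.7%), compared with 37.4% of all 32851 promoters. TATAAA, a form of the TATA box, was found on either strand in 35 (55.6%), compared with 13.6%. The motifs were counted separately. Windows of neighbouring genes in opposite orientation, such as H2ac12 and H2bc12, overlap, and a motif in the shared bases was counted for both. The member promoters are therefore not separate observations, and no test was made. The promoters of H1f2 and H2ac18, which followed the same order of libraries, and of H4c9, which followed the reverse order, are shown 5′ to 3′ on the strand of the gene with both motifs and their reverse complements in capitals.
H1f2, chr13:23738557-23738856, plus strand: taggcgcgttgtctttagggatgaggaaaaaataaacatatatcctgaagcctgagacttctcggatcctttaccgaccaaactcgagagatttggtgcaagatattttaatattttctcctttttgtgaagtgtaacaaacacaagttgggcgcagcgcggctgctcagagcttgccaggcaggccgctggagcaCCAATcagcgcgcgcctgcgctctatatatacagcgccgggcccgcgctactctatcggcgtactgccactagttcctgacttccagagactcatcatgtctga
H2ac18, chr3:96245247-96245546, plus strand: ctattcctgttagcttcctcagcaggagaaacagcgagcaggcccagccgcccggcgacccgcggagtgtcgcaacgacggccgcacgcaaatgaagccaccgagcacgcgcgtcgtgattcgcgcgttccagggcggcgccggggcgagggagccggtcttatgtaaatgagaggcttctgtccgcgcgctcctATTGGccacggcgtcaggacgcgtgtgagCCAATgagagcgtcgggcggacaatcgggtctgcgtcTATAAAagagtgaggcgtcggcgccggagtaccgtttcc
H4c9, chr13:22041313-22041612, minus strand: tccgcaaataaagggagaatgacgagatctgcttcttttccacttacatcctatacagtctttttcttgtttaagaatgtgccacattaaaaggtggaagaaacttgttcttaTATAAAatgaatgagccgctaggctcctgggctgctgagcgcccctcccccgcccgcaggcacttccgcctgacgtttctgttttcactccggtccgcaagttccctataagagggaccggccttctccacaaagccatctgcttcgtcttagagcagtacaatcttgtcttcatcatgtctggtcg
H1f2 held CCAAT and no TATAAA, H2ac18 held both, and H4c9 held TATAAA and no CCAAT in this window. Matches were counted anywhere in the window. The TATAAA of H4c9 lies well before the start, and that of H2ac18 lies just after the annotated start. Other TATA-like forms were not counted, so a gene without TATAAA may still hold a TATA box. Of the other genes that were lowest in the same libraries as H4c9, H2ac7, H4c4, H4c3 and H3c2 held CCAAT, and H4f16 held neither motif.

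The detected genes varied between libraries within each group. H1f2 encodes the linker histone H1.2, which binds DNA where it enters and leaves the nucleosome. Its FPKM was 60.0, 13.3 and 12.9 in CTL 1 to 3, 13.1, 16 and 47.2 in MS 1 to 3 and 15.5, 58.0 and 11.5 in Blebb. 1 to 3. CTL 1, MS 3 and Blebb. 2, 1 library of each group, were high and the other 6 were low. The lowest of the 3 was 2.95 times the highest of the 6, while all 3 groups overlapped. The highest value was 5.23 times the lowest, compared with a median of 1.73 times over all tested genes. The SD of log2(FPKM + 1) was 0.98, higher than in 99.2% of the tested genes. In bulk samples such as these, a change in the share of cells of one kind and a change in the mRNA per cell cannot be told apart.

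H2ac18 and H2ac19 encode H2A and lie next to each other on chromosome 3 in opposite orientation. Every 50 nt stretch of the H2ac19 transcript also occurs in H2ac18, 89.2% of the stretches of H2ac18 occur in H2ac19, and 89.4% occur in the overlapping Gm20634, so that their values are uncertain one by one. H2ac19 was at 4.67, 2.41 and 1.99 FPKM in CTL, 2.37, 2.40 and 5.26 in MS and 1.74, 4.30 and 1.70 in Blebb. H2ac18 was at 4.16, 2.15 and 1.89 FPKM in CTL, 2.37, 2.02 and 4.70 in MS and 1.60, 3.62 and 1.60 in Blebb. The sum of both genes was 8.83, 4.56 and 3.89 FPKM in CTL, 4.74, 4.42 and 9.97 in MS and 3.35, 7.92 and 3.31 in Blebb. CTL 1, MS 3 and Blebb. 2 were again the high libraries, with MS 3 the highest.

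H2aw encodes an H2A of the Hist3 cluster. It was at 7.24, 4.71 and 4.56 FPKM in CTL, 4.49, 4.54 and 6.41 in MS and 4.66, 7.08 and 4.70 in Blebb. The same libraries were high, and the lowest of them was 1.36 times the highest of the rest. In the annotation it shares 31.5% of its 50 nt stretches with the overlapping gene Trim17. The values of Trim17 lay between 0.0595 and 0.165 FPKM.

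H2B was represented by 3 genes with a smaller spread. H2bc4 was at 17.0, 14.6 and 14.8 FPKM in CTL, 14.5, 12.2 and 15.0 in MS and 13.4, 16.6 and 13.4 in Blebb. H2bc8 was at 4.19, 2.82 and 3.68 FPKM in CTL, 3.52, 3.49 and 4.01 in MS and 3.69, 4.34 and 3.09 in Blebb. CTL 1, MS 3 and Blebb. 2 were the highest in both, but only by 1.01 times in H2bc4 and 1.08 times in H2bc8. H2bc21 was at 2.56, 1.27 and 1.68 FPKM in CTL, 2.04, 1.42 and 2.04 in MS and 1.51, 2.28 and 1.60 in Blebb., with CTL 1 and Blebb. 2 the highest and MS 1 and MS 3 alike. Its transcript shares no 50 nt stretch with another gene. The SD of log2(FPKM + 1) of H2bc4 was 0.14, higher than in 16.3% of the tested genes.

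H4c9 went the other way. It was at 1.10, 2.31 and 2.77 FPKM in CTL, 2.28, 2.16 and 1.80 in MS and 1.83, 1.44 and 2.10 in Blebb. CTL 1, MS 3 and Blebb. 2 were its lowest libraries, and the nearest other library (Blebb. 1) was only slightly above MS 3.

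**Figure D2:**
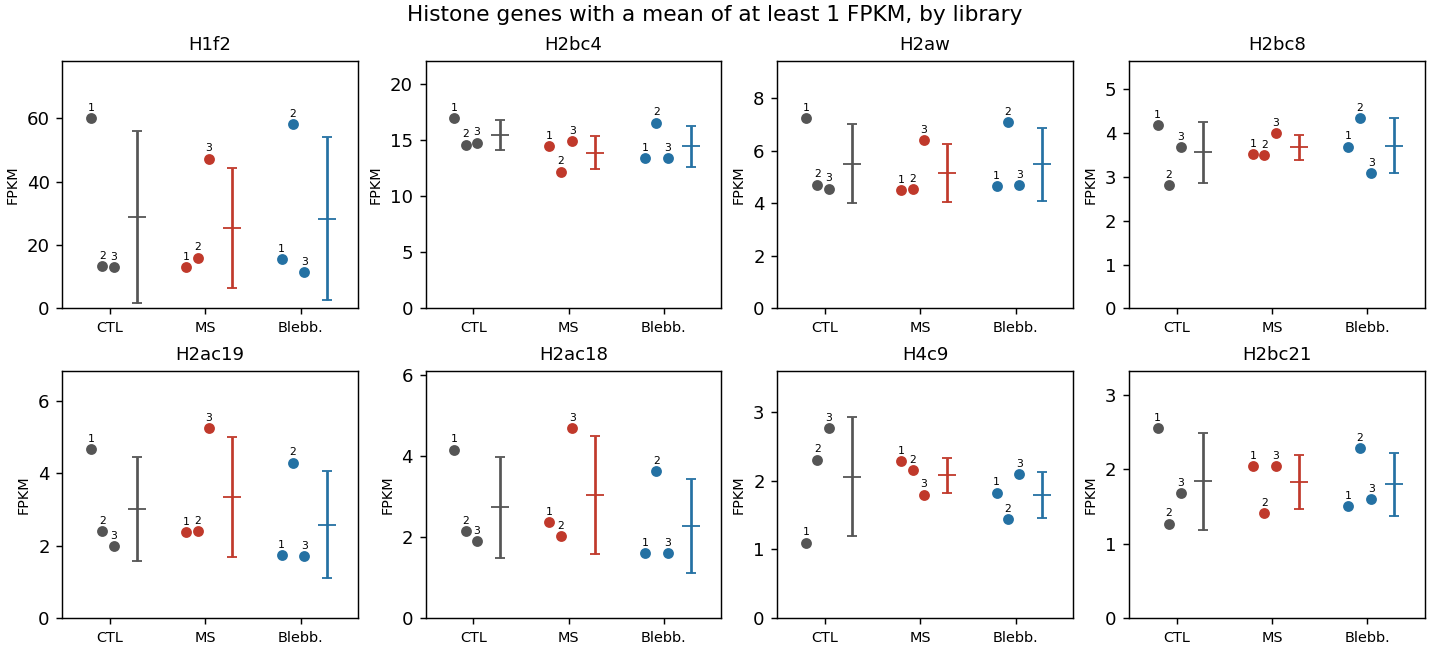
The FPKM of each of the 8 detected histone genes is plotted by group on linear axes from 0, with 1 numbered point per library and the mean ± SD of the 3 libraries beside them. H1f2 has 1 library between 47.2 and 60.0 in each group and the others at or below 16, H2bc4 is nearly level, and H4c9 is lowest in the libraries where H1f2 is highest.

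CTL 1, MS 3 and Blebb. 2 were the 3 highest libraries in 6 of the 8 detected genes (H1f2, H2bc4, H2aw, H2bc8, H2ac19 and H2ac18) and the 3 lowest in H4c9. Of all 10109 tested genes, these libraries were the highest in 15.8% and the lowest in 16.1%. These libraries were picked out as the 3 highest in H1f2, so that H1f2 is among the 6 by definition. H2ac18 and H2ac19 share most of their sequence and do not count as separate observations. The libraries are described by their order only, and no test was made between them and the rest. Among the 59 genes below 1 FPKM, they were the highest in H2ac20, H3c15 and H3c14 (5.08%) and the lowest in H4f16, H2ac7, H4c4, H4c3 and H3c2 (8.47%). Both shares are below the 15.8% and 16.1% of all tested genes. The values are low, such as 0 to 0.0924 FPKM in H3c2, so the order of libraries in these genes is uncertain. In H3c15 (Hist2h3c2) the values were 0.351, 0.491 and 0.468 FPKM in CTL 1, MS 3 and Blebb. 2, and the other libraries held between 0.123 and 0.315 FPKM. By cluster, the 9 genes that were highest in these libraries were 5 of 10 Hist2, 1 of 2 Hist3 and 3 of 54 Hist1 genes. The 5 Hist2 genes (H2ac20, H3c15, H2ac19, H2ac18 and H3c14) lie within 28.1 kb at chr3:96220361-96248509, and they share sequence, so they do not count as 5 separate observations. The 6 genes that were lowest there were 5 of 54 Hist1 genes and H4f16, the only Hist4 gene.

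Sums over the family gave the same order of libraries in 1 part of it and the reverse in the other. The 67 genes summed to 108.4, 53.4 and 53.0 FPKM in CTL, 55.1, 54.2 and 94.2 in MS and 53.7, 105.3 and 49.3 in Blebb. By group the sum was 71.6 ± 31.9 in CTL, 67.8 ± 22.8 in MS and 69.4 ± 31.2 in Blebb. (SD, n = 3). H1f2 made up between 23.3% and 55.4% of the sum. Its share was highest in CTL 1, MS 3 and Blebb. 2, which were picked out by H1f2, so their high sums follow in part from that choice. Without H1f2, the detected genes summed to 40.9, 30.3 and 31.4 FPKM in CTL, 31.6, 28.2 and 39.2 in MS and 28.4, 39.7 and 28.2 in Blebb. The 59 genes below 1 FPKM summed to 7.47, 9.83 and 8.69 FPKM in CTL, 10.4, 9.91 and 7.81 in MS and 9.73, 7.62 and 9.56 in Blebb. The libraries with the highest sum of the whole family had the lowest sums of these weakly detected genes.

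Genes of DNA replication were low in the libraries with high H1f2. Of 30 S phase genes, which act in licensing, replication forks and nucleotide supply, 28 were lowest in CTL 1, MS 3 and Blebb. 2. They summed to 702.9, 1650 and 1755 FPKM in CTL, 1721, 1559 and 950.6 in MS and 1682, 712.7 and 1659 in Blebb. Slbp, which encodes the stem-loop binding protein, was at 12.7, 25.0 and 29.9 FPKM in CTL, 36.0, 23.4 and 19.7 in MS and 19.7, 14.1 and 28.9 in Blebb. Among 18 tested G2/M genes, 13 were lowest in these libraries. Of 17 tested genes of histone gene transcription and mRNA processing, 8 were lowest there (among them Slbp, which is in both lists, and Lsm11, a U7 snRNP subunit) and 2 were highest (Lsm10, another U7 snRNP subunit, and Cdk2). Of 15 histone chaperone genes, 8 were lowest and none was highest. Chaf1b is among these 8 and among the 28 S phase genes. Nasp, a chaperone of H3 and H4 and of linker histones, was at 3.70, 17.9 and 21.8 FPKM in CTL, 27.6, 18.8 and 8.72 in MS and 12.4, 3.90 and 21.7 in Blebb.

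Of the 9 tested variant histone genes, 1 was highest (11.1%) and 3 were lowest (33.3%) in these libraries, compared with 15.8% and 16.1% of all tested genes. H1f0, a linker histone gene associated with cells that have stopped dividing, was at 84.9, 44.5 and 44.9 FPKM in CTL, 50.1, 45.1 and 79.2 in MS and 44.9, 87.8 and 43.2 in Blebb. It was highest in CTL 1, MS 3 and Blebb. 2, as H1f2 was. H2az1 was lowest in them, at 411.9, 451.6 and 382.3 FPKM, compared with 633.7 to 764.1 FPKM in the others. Cenpa, the centromeric H3, and Macroh2a1 were lowest there as well. The remaining 5 of the 9 tested variant genes followed neither order. S phase genes, other library features and the histone genes moved together across the same 9 libraries, and the part of one in another was not tested.

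**Figure D3:**
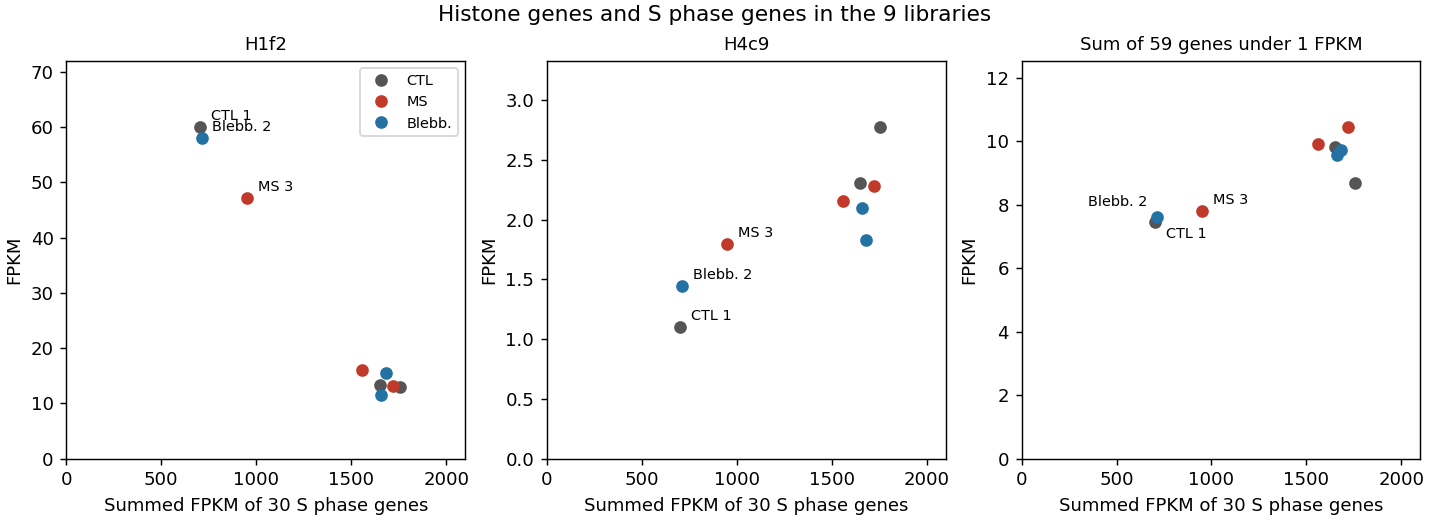
FPKM of H1f2, FPKM of H4c9 and the summed FPKM of the 59 histone genes below 1 FPKM are plotted against the summed FPKM of 30 S phase genes, with 1 point per library colored by group. CTL 1, MS 3 and Blebb. 2 lie apart at the left, high in H1f2 and low in the other panels.

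Several facts of the libraries bear on these values. The columns summed to between 439939 and 484093 FPKM, and 9529 to 10388 genes per library reached 1 FPKM. The number of reads is unknown, so no counting interval can be given. Markers were those of the labelled cells. The 8 melanocytic genes were all tested and summed to 9399 to 15120 FPKM, and 3 of them (Tyr, Dct and Pmel) were highest in CTL 1, MS 3 and Blebb. 2. The other 5 were not, and in Mitf and Mlana the lowest values were those of CTL 1 and Blebb. 2 (9.50 and 8.51 FPKM in Mitf, 970.2 and 1072 FPKM in Mlana). The 6 fibroblast markers summed to at most 0.567 FPKM and the 6 keratinocyte markers to at most 0.0314 FPKM. The 6 macrophage markers summed to 2.10 to 4.32 FPKM, mostly as Cd68 (mean 2.14 FPKM). The deviation of a gene from its mean correlated with its GC content across 9749 genes with r from -0.64 (MS 1) to 0.54 (Blebb. 1 and Blebb. 2), which describes genes and not replicates. CTL 1 (0.46), MS 3 (-0.16) and Blebb. 2 did not share a direction in this.

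The effect of cyclic straining was examined by comparing MS with CTL. None of the 8 detected histone genes passed the test. In limma over all 10109 tested genes, 0 of the 8 had an adjusted p below 0.05, 0 had an unadjusted p below 0.05 and 0 had groups that did not overlap. The background over all tested genes was 0.0% by adjusted p, 0.158% by unadjusted p and 3.17% by groups that did not overlap. The log2 fold changes of FPKM + 1 ran from -0.15 in H2bc4 (SE 0.14, unadjusted p = 0.321, limma) to 0.10 in H2ac19 (SE 0.37), with an adjusted p of 1.00 in all 8. Leaving out 1 library in turn gave -0.20 (without MS 3) to -0.064 (without MS 2) for H2bc4. H2bc4 had means of 13.9 ± 1.47 FPKM in MS and 15.5 ± 1.31 FPKM in CTL (SD, n = 3). Values were above 0 in 5 genes and below 0 in 3, with a median of 0.03 (0.00 over all tested genes). H1f2 had a log2 fold change of -0.02 with an SE of 0.76, so that the spread within the groups was far larger than the difference between them. Its direction rested on single libraries, since the log2 fold change was 0.68 without CTL 1 and -0.57 without MS 3.

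The Blebb. group was then compared with MS. If it was also strained, the comparison addresses myosin II inhibition during straining, and otherwise both treatments differ. Again 0 of the 8 genes had an adjusted or an unadjusted p below 0.05 or groups that did not overlap, with backgrounds of 0.0%, 1.25% and 3.73%. The lowest values were those of H2ac18 (-0.30, SE 0.34) and H2ac19 (-0.29, SE 0.37), both with an adjusted p of 0.897 in limma. H2ac18 had a mean of 2.27 ± 1.17 FPKM in Blebb. and 3.03 ± 1.46 FPKM in MS. H4c9 was next with -0.15 (SE 0.23), and H2aw had the highest value with 0.07 (SE 0.22). The values of H2ac18 and H2ac19 moved to -0.018 and 0.0070 without MS 3, to -0.57 and -0.61 without Blebb. 2 and to -0.54 and -0.53 with the GC trend removed. The median of the 8 genes was -0.01, as over all tested genes.

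Blebb. against CTL gave the same picture, with 0 of the 8 genes below 0.05 by adjusted or unadjusted p and 0 without overlap (backgrounds 0.0%, 0.089% and 2.08%). Log2 fold changes ran from -0.20 in H2ac18 (SE 0.34) to 0.05 in H2bc8 (SE 0.17), the adjusted p was 1.00 in all 8 (limma), and the median was -0.05 (-0.01 over all tested genes). These 3 comparisons share their groups and are not independent of each other. The interval of each difference is wide for H1f2, H2ac18 and H2ac19, and a p above the threshold does not show that the groups were alike.

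**Figure D4:**
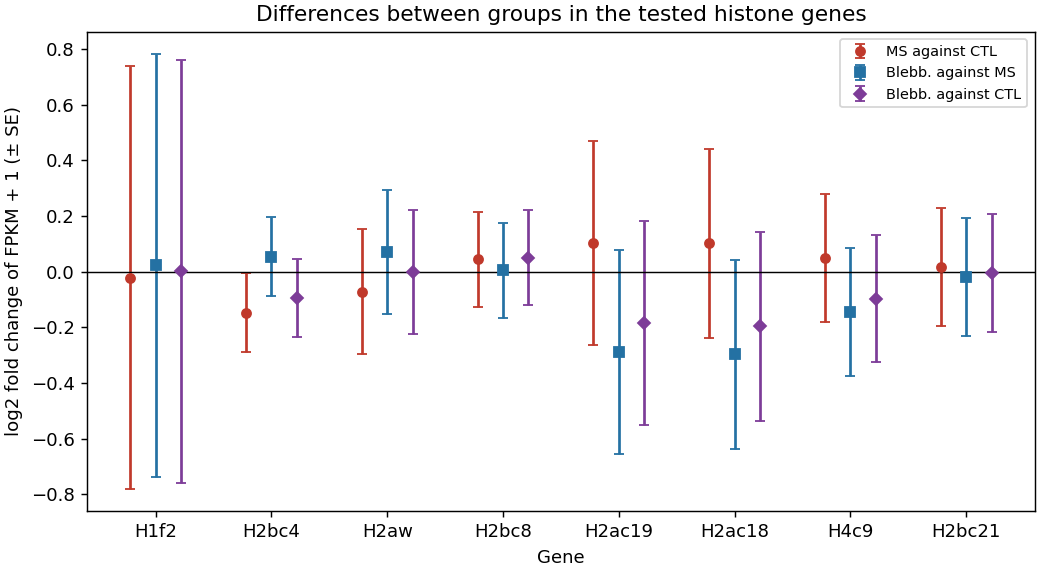
The log2 fold change of FPKM + 1 is plotted for the 8 tested histone genes in 3 comparisons, with bars of ± 1 SE from the limma fit. The values lie between -0.30 and 0.10, and the bars of H1f2 (SE 0.76) are the widest.

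Treatment group accounted for little of the spread of these genes. The share of the sum of squares of log2(FPKM + 1) between the 3 groups had a median of 4.31% over the 8 genes, compared with 12.7% over all tested genes. It was 0.0129% in H1f2 and 21.4% in H2bc4. Means of groups of 3 libraries differ even without an effect of treatment, so a share above 0 does not show one. In each comparison 0 genes passed the adjusted threshold in the S phase (30 tested), G2/M (18), transcription and processing (17), variant histone (9) and chaperone (15) lists, and 0 of them had an unadjusted p below 0.05 either. In MS against CTL and in Blebb. against MS, the S phase and G2/M genes lay more to 1 side than the histone genes did. In Blebb. against CTL this held for the G2/M genes but not for the S phase genes. In MS against CTL, 27 of 30 S phase genes and 16 of 18 G2/M genes had a log2 fold change above 0 (medians 0.11 and 0.27), beside 5 of the 8 histone genes. In Blebb. against MS, 5 of 30 and 2 of 18 were above 0 (medians -0.13 and -0.36), beside 4 of the 8. In Blebb. against CTL, 13 of 30 and 1 of 18 were above 0 (medians -0.0095 and -0.15), beside 2 of the 8. Genes of a list vary together across libraries, and these counts were not tested. Each group holds 1 library with a low S phase sum, at 702.9 FPKM in CTL 1, 950.6 in MS 3 and 712.7 in Blebb. 2. In the other libraries the sum was 1650 and 1755 FPKM in CTL, 1721 and 1559 in MS and 1682 and 1659 in Blebb. The G2/M sums were lowest in the same libraries, at 374.2, 489.0 and 344.8 FPKM. The part of these libraries in the counts was not tested.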

How the data were processed

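RNA of B16 cells was extracted with TRIzol and sequenced by the authors, who deposited 1 FPKM value per gene in each of 9 libraries. FPKM had been scaled for gene length and mapped fragments before deposit. The column of CTL 1 is headed with a sample name, and FPKM was assumed for it. The submitters' processing notes name GRCm38 and mm10. The aligner, counting program and annotation are not given in the sources used here. Symbols were matched to older names through RefSeq (GRCm38.p6), a step decided on names alone. Another 3 pseudogenes of the family have no row here. Transcripts were those of GENCODE M21, also on GRCm38.

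Values were compared as log2(FPKM + 1), which understates changes of low genes. The 10109 genes whose mean FPKM was 1 or more were fitted together in limma 3.58.1 (R 4.3.3), with 3 group means, a variance trend, two-sided tests, Benjamini-Hochberg adjustment over all of them and a threshold of 0.05. The fit was tested on simulated data. Values in every library are given for the 10 histone genes with the highest mean, the 3 tested members with the highest and lowest fold change in each comparison and the 3 with the largest SD. Others were named after their values were seen. The members and lists were chosen with earlier results of these data known. Alternatives were another pseudocount (0.1), a minimum of 5 FPKM or none, quantile normalization or median-of-ratios factors, a fit without the trend or with only 2 groups, a replicate block, removal of the GC trend (loess, span 0.5) and libraries left out. No library pair held identical values. Plots were drawn with matplotlib 3.10.9.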

Additional observations from a re-analysis of the deposited data

How the results depend on the processing

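Across the alternatives run (pseudocount, minimum level, scaling, trend of the variance, GC content, samples in the fit and libraries left out), 0 histone genes had an adjusted p below 0.05 in any comparison (limma). The lowest adjusted p was 0.966 in MS against CTL, 0.649 in Blebb. against MS and 0.90 in Blebb. against CTL. With no minimum level, 1 of 61 histone genes in each of MS against CTL and Blebb. against CTL had an unadjusted p below 0.05, compared with 1.11% of all 16483 genes in both. Detection depended on the limit, with 41 of the 67 genes at a mean of at least 0.1 FPKM, 3 at 5 FPKM and 2 at 10 FPKM. The median log2 fold change of the tested genes changed sign in each comparison. It ran from -0.19 (without MS 3) to 0.17 (without CTL 1) in MS against CTL, was -0.012 there with quantile normalization, and ran from -0.14 (GC trend removed) to 0.064 (without Blebb. 3) in Blebb. against MS and from -0.18 (without Blebb. 2) to 0.12 (without CTL 1) in Blebb. against CTL. Single log2 fold changes lay near 0, and 37 of 249 changed sign. They are given by alternative, and the cause was not tested. With quantile normalization these were H1f2 0.0074, H2bc8 -0.0018, H4c9 -0.032 and H2bc21 -0.023 for MS against CTL, H1f2 -0.0045, H4c9 0.024 and H2bc21 0.14 for Blebb. against MS and H2aw 0.080 and H2bc21 0.11 for Blebb. against CTL. With the GC trend taken out these were H1f2 0.079 and H2bc21 -0.069 for MS against CTL, H1f2 -0.14, H2bc8 -0.14 and H2bc21 0.13 for Blebb. against MS and H1f2 -0.065, H2aw 0.060, H2bc8 -0.0091 and H2bc21 0.064 for Blebb. against CTL. Without CTL 1 and Blebb. 2 these were H1f2 0.68, H2aw 0.11 and H4c9 -0.20 for MS against CTL, H1f2 -0.66, H2bc4 -0.042, H2aw -0.10 and H2bc8 -0.090 for Blebb. against MS and H2aw 0.012 and H2bc21 0.051 for Blebb. against CTL. Without CTL 1, MS 3 and Blebb. 2, an alternative chosen after seeing the data, these were H1f2 0.14 and H4c9 -0.13 for MS against CTL, H1f2 -0.11 and H2bc8 -0.039 for Blebb. against MS and H2aw 0.012 and H2bc21 0.051 for Blebb. against CTL. With median-of-ratios factors these were H2bc21 0.0049 for Blebb. against MS and H2aw 0.024 and H2bc21 0.012 for Blebb. against CTL. With a pseudocount of 0.1 this was H2bc21 0.0033 for Blebb. against CTL. Another 45 of 216 values changed sign where each library was left out in turn. In MS against CTL, leaving out 1 library in turn gave H1f2 -0.57 to 0.68, H2bc4 -0.20 to -0.064, H2aw -0.21 to 0.11, H2bc8 -0.078 to 0.14, H2ac19 -0.19 to 0.38, H2ac18 -0.18 to 0.36, H4c9 -0.20 to 0.22 and H2bc21 -0.13 to 0.19. In Blebb. against MS, leaving out 1 library in turn gave H1f2 -0.66 to 0.57, H2bc4 -0.042 to 0.11, H2aw -0.10 to 0.21, H2bc8 -0.090 to 0.10, H2ac19 -0.61 to 0.0070, H2ac18 -0.57 to -0.018, H4c9 -0.22 to -0.053 and H2bc21 -0.14 to 0.054. In Blebb. against CTL, leaving out 1 library in turn gave H1f2 -0.68 to 0.70, H2bc4 -0.19 to -0.029, H2aw -0.17 to 0.18, H2bc8 -0.074 to 0.15, H2ac19 -0.51 to 0.089, H2ac18 -0.47 to 0.062, H4c9 -0.35 to 0.076 and H2bc21 -0.15 to 0.17. The extremes of H1f2 came with CTL 1, MS 3 or Blebb. 2 left out.

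Pairing of the libraries by replicate number was examined, but the check cannot settle it. CTL 1, MS 3 and Blebb. 2 differ most from their groups and carry different numbers. The deviations of CTL 1 correlated with r = 0.92 with Blebb. 2 and 0.75 with MS 3, which lowers the values of same-numbered pairs. Same-numbered libraries correlated with r from -0.78 to 0.84 in their deviations from the group means, 2 of 9 such pairs were above 0.1, and 2 of 9 libraries correlated best with one of their own number. With the number as a replicate block, 0 histone genes passed in each comparison. The number of reads is unknown, so values near 0 FPKM cannot be given a counting limit.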
